A study of Mus musculus with 2 samples.

Results

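The antioxidant enzymes described here are 10 genes that remove superoxide or peroxides: the glutathione peroxidases Gpx1, Gpx3 and Gpx4, the superoxide dismutases Sod1 and Sod2, catalase (Cat), the peroxiredoxins Prdx1, Prdx2 and Prdx4, and thioredoxin (Txn1). They were chosen by symbol, and all 10 were found among the 27998 genes counted. The study prepared single-cell libraries with the 10x Genomics 3′ v2 kit from islets of male mice that were 8 weeks of age and had fasted for 12 hours, with 1 library from wild type (WT) mice and 1 from mice that carry a miR-203 transgene restricted to beta cells. The number of mice behind a library is not given in the sources used here, and neither is the promoter of the transgene. The TG cells were not analysed here, because the copy of the TG matrix covered 547 entries of droplets with at most 110 UMIs each. The values below therefore describe the WT library alone, with no replicate and no test over samples.

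Superoxide dismutases turn superoxide into hydrogen peroxide, Sod1 in the cytosol and Sod2 in mitochondria. Catalase in peroxisomes, the glutathione peroxidases and the peroxiredoxins then break the peroxide down, and thioredoxin hands electrons back to most peroxiredoxins. Gpx3 differs from the other enzymes in being secreted, and Prdx4 works in the endoplasmic reticulum. Beta cells are known for low catalase and low glutathione peroxidase activity relative to many other tissues.

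Gpx1, Gpx3 and Gpx4 are selenoproteins: an in-frame TGA, which elsewhere ends translation, is read as selenocysteine at the active site. The 3 codons are shown because they are what sets these peroxidases apart from the other 7 members, whose coding sequences held 0 in-frame TGA codons before the stop. Each line gives 51 bases of coding sequence on the sense strand, with the selenocysteine codon in capitals (GENCODE annotation, build GRCm38, all on the plus strand).
Gpx3: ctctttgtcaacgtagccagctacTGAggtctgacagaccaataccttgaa
Gpx1: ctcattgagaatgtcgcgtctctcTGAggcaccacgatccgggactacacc
Gpx4: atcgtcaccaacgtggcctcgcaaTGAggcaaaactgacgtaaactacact
The codon of Gpx3 was codon 73 of 226, in exon 2 at chr11:54907256-54907258. That of Gpx1 was codon 47 of 201, in exon 1 at chr9:108339451-108339453. That of Gpx4 was codon 73 of 197, in exon 3 at chr10:80054737-80054739.

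The WT matrix held 118523180 UMIs, of which the 4547 barcodes with at least 500 genes that passed the limit on UMIs were used, the shallowest with 5641 UMIs. A barcode was called beta where Ins1 and Ins2 together took at least 30% of its UMIs (3258 barcodes), alpha where Gcg took at least 8% (423), delta where Sst took at least 3% (137) and PP where Ppy took at least 8% (117). Another 63 barcodes passed more than 1 limit, most often those of alpha and PP (34 barcodes), and were set apart, and 549 passed none. Median UMIs per barcode were 23414.5 in beta, 15015 in alpha, 9020 in delta and 21063 in PP cells. Of the markers fixed for each class, 7 of 8 beta markers were highest in beta cells (Mafa was near 0), 7 of 8 alpha markers in alpha cells, 5 of 6 delta markers in delta cells and 3 of 4 PP markers in PP cells. Erythroid markers summed to 4537 CPM in PP cells, against 35.02 to 46.4 CPM in the other 3 classes, and their part in the PP values was not tested. The labels' preparation text also describes goblet cells, whose 5 markers together reached at most 16.2 CPM. Among the 549 barcodes, 78 carried at least 4 of 9 macrophage markers and 114 at least 4 of 7 endothelial markers, limits chosen after the data were seen. The latter were led by haemoglobin genes and are therefore called by their markers only.

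Insulin took a median 50.6% of the UMIs of a beta cell, so levels are given as counts per 1000000 UMIs outside the 7 islet hormone genes Ins1, Ins2, Iapp, Gcg, Sst, Ppy and Pyy (CPM, used in this sense throughout). Intervals are exact 95% intervals and cover counting error only. Counts come from transcript 3′ ends and carry no length term, and how well each gene was captured was not measured, so comparisons are between classes for the same gene unless the sentence says otherwise.

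**Figure D1:**
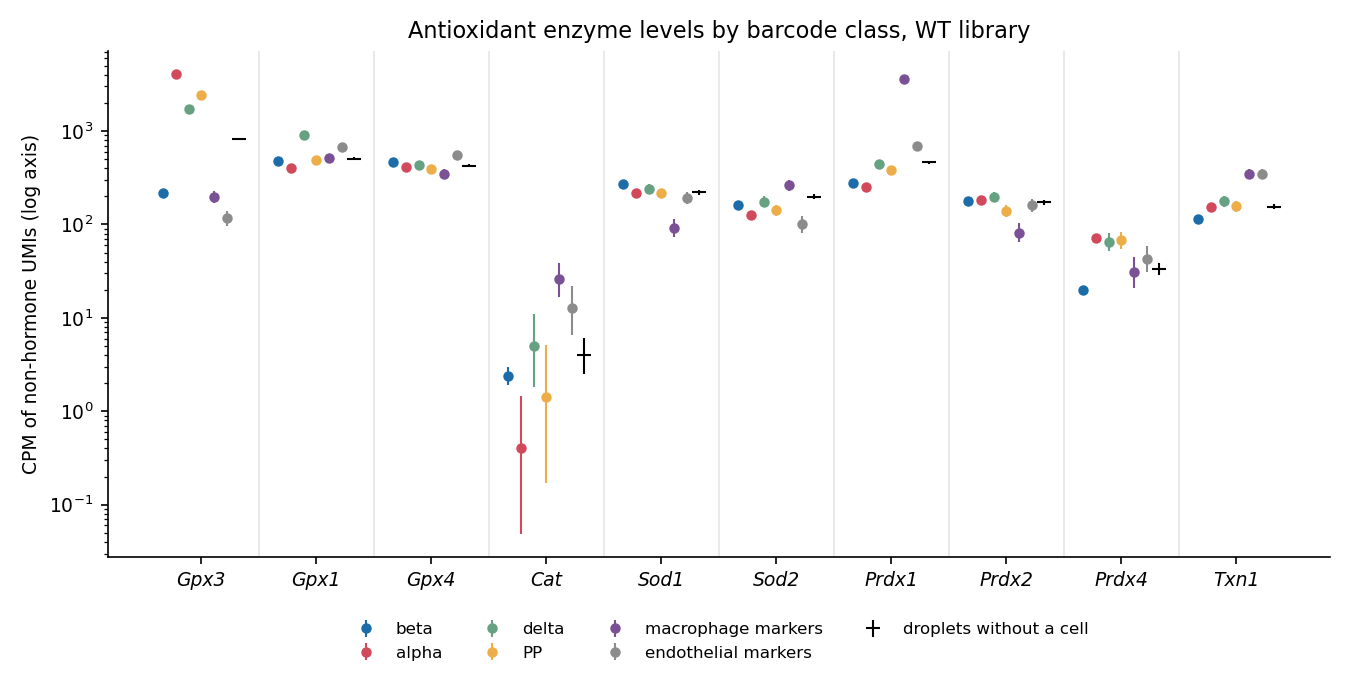
Level of each of the 10 enzymes (CPM of non-hormone UMIs, log axis) in the 4 endocrine classes, in barcodes with macrophage or endothelial markers and in droplets of at most 200 UMIs. Points are summed levels and bars exact 95% Poisson intervals. Gpx3 spans 117 to 4048 CPM and Prdx1 254 to 3640, while Gpx4 stays between 350 and 548.

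Gpx3, the secreted glutathione peroxidase (chr11:54902453-54910377), was the member that separated the endocrine classes most. Its level was 217 CPM (212.7 to 222.3) in beta cells, 1717 (1644 to 1793) in delta cells, 2414 (2334 to 2497) in PP cells and 4048 (3992 to 4104) in alpha cells. The order was alpha, PP, delta and beta, and no neighbouring intervals overlapped. Alpha cells exceeded beta cells 18.6-fold (18.1 to 19.1), PP cells exceeded them 11.1-fold (10.7 to 11.6) and delta cells 7.90-fold (7.52 to 8.29). As counts per 1000000 of all UMIs, insulin included, the levels were 94.2 in beta and 2875 in alpha cells.

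The other 2 selenoprotein peroxidases showed no such gap. Gpx1, the main cytosolic peroxidase (chr9:108338903-108340343), was at 480 CPM (473 to 488) in beta cells and 400 (382 to 418) in alpha cells, and at 486 (450 to 523) in PP cells, where the ratio interval with beta cells held 1. Delta cells stood above these with 916 (862 to 971), which was 1.91-fold (1.79 to 2.03) the beta level. Gpx4, which reduces lipid peroxides in membranes (chr10:80047166-80056439), had 470 CPM in beta, 432 in delta, 409 in alpha and 388 in PP cells. For Gpx4 the intervals of all 3 ratios among alpha, delta and PP cells held 1, and beta cells were 1.15-fold (1.10 to 1.20) above alpha and 1.21-fold (1.11 to 1.32) above PP cells.

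Catalase (Cat, chr2:103453849-103485160) was at the edge of what these counts can show. Over all cells of a class it had 86 UMIs in beta, 2 in alpha, 6 in delta and 2 in PP cells, or 2.39 CPM (1.91 to 2.95) in beta and 0.405 (0.0491 to 1.46) in alpha cells. The ratio of beta over alpha was 5.89 with an interval of 1.58 to 49.4, and the intervals against delta and PP cells held 1. By a limit explained below, free RNA with the makeup of cell-free droplets could account for up to 75.2% of the alpha level. Barcodes with macrophage markers had 25.9 CPM (16.6 to 38.5), which was 10.8-fold (6.59 to 17.2) the beta level, and those with endothelial markers 12.6 (6.52 to 22.0). With unthinned counts a Cat UMI was seen in 2.55% of beta cells and in 20.5% of the barcodes with macrophage markers.

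The dismutases varied little. Sod1, the copper and zinc enzyme of the cytosol (chr16:90220754-90226329), lay between 215 CPM in alpha and 270 in beta cells. Sod2, the mitochondrial manganese enzyme (chr17:13006846-13040063), lay between 126 in alpha and 176 in delta cells, with beta cells at 161. In barcodes with macrophage markers the 2 dismutases went opposite ways relative to beta cells: Sod1 was 2.91-fold lower (2.36 to 3.64) at 92.7 CPM, and Sod2 was 1.63-fold higher (1.43 to 1.85) at 262. Sod1 is overlapped on the other strand by Scaf4, and Prdx2 by Rnaseh2a and Junb. Whether counting used strand is not given in the sources used here, and reads of these partners cannot be told apart from the members'.

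Prdx4, the peroxiredoxin of the endoplasmic reticulum (chrX:155323918-155340754), was the second member that beta cells had at a clearly lower level. It stood at 19.996 CPM (18.6 to 21.5) in beta cells against 71.9 (64.6 to 79.8) in alpha, 65.0 (51.4 to 81.2) in delta and 67.8 (54.9 to 82.8) in PP cells. The 3 other classes could not be told apart, since the intervals of all their ratios held 1, and each was above beta cells, by 3.60-fold for alpha (3.16 to 4.09), 3.25-fold for delta (2.54 to 4.11) and 3.39-fold for PP cells (2.71 to 4.198). Prdx4 in beta cells was also below the 33.5 CPM of droplets without a cell.

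The cytosolic peroxiredoxins Prdx1 (chr4:116685544-116700822) and Prdx2 (chr8:84969587-84974834) moved apart between classes. Prdx1 had 277 CPM in beta and 254 in alpha cells, and was higher in PP (380) and delta cells (445). Prdx2 had 180 in beta, 184 in alpha and 197 in delta cells, whose ratio intervals all held 1, and 140 in PP cells. Outside the endocrine cells Prdx1 reached its highest level in the classes compared, 3640 CPM (3518 to 3765) in barcodes with macrophage markers, 13.1-fold (12.6 to 13.6) the beta level. Those barcodes were unequal among themselves. Per cell, Prdx1 ran from 3.91 UMIs per 10000 non-hormone UMIs at the 10th percentile through a median of 34.0 to 90.5 at the 90th, and its variance was 45.8 times that of counting alone, against 1.51 times in beta cells. Prdx2 went the other way there, at 81.9 CPM or 2.20-fold below beta cells (1.76 to 2.80).

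Txn1, the cytosolic thioredoxin (chr4:57943373-57956411), was lowest in beta cells at 113 CPM (109.7 to 116.7). Alpha, PP and delta cells had 154, 157 and 178, and the intervals of all ratios among these 3 classes held 1. Barcodes with macrophage and with endothelial markers each had 350, which was 3.10-fold the beta level in both. The annotation lists pseudogene copies of thioredoxin and of Gpx4 (Txn-ps1 and Gpx4-ps2), so reads shared with such copies leave these 2 members less certain.

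Each level ratio was next set against all genes with at least 20 CPM in either class, as a log2 ratio relative to the median gene, and a gene was counted as higher or lower in beta cells at 1.5-fold (0.58 on the log2 scale). The median gene itself lay at 0.36 against alpha, 0.02 against delta and 0.11 against PP cells. Of the 10 members 9 reached the floor, and Cat did not. Prdx4 reached it only through the other class, since its beta level lay just under 20 CPM, so it could be called in no direction but lower and its call is a description. Against alpha cells 0 members were higher and 3 lower (Gpx3, Prdx4 and Txn1), beside 17.2% of 6707 genes higher and 15.5% lower. Against delta cells 0 were higher and 5 lower (those 3 with Gpx1 and Prdx1), beside 18% of 7095 genes higher and 17% lower. Against PP cells 0 were higher and 3 lower (Gpx3, Prdx4 and Txn1), beside 15.9% of 6846 genes higher and 14.5% lower. The median member lay at -0.23, -0.68 and -0.13 in the 3 contrasts. Because all 3 contrasts share the beta cells, a member low in beta cells appears in each of them.

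On this scale Gpx3 was at -4.58 against alpha, -3.00 against delta and -3.58 against PP cells, and 25, 111 and 43 genes, Gpx3 included, were as low or lower. Prdx4 was at -2.20, -1.72 and -1.87, and is not ranked among the genes because it reached the floor only through the other class. Txn1 was at -0.80, -0.68 and -0.59, close to the 1.5-fold line, and Prdx1 at -0.57 against PP cells lay just inside it. With barcodes of at least 10000 UMIs alone, Txn1 came inside 1.5-fold against delta (-0.39) and PP cells (-0.57) and Prdx1 against delta cells (-0.39). With the trimmed mean of M values Txn1 did so too, at -0.58 and -0.50, as it did against PP cells with the total of all UMIs (-0.51). Sod1, Sod2, Gpx4 and Prdx2 were within 1.5-fold of the median gene in each contrast. Against alpha cells Gpx4 was at -0.16 (-0.23 to -0.09), Gpx1 at -0.09 (-0.16 to -0.02) and Prdx1 at -0.23 (-0.32 to -0.15). These members thus lay below the median gene although their plain levels were higher in beta than in alpha cells.

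**Figure D2:**
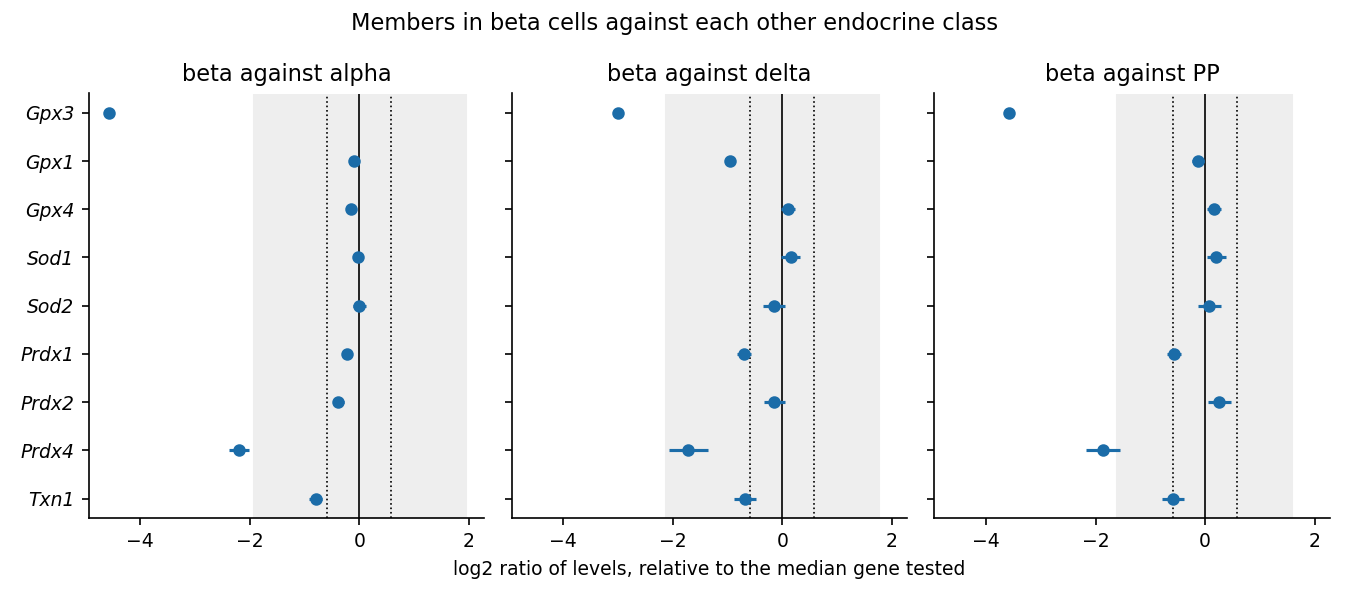
Log2 ratio of the level in beta cells over alpha, delta and PP cells, relative to the median gene tested, for the 9 members above the floor. Bars are exact 95% intervals for counting error, dotted lines mark 1.5-fold, and the grey area holds the central 95% of all genes tested. Gpx3 lies outside the grey area in all 3 contrasts, at -4.58, -3.00 and -3.58.

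The wider redox genes, a list of 49 that includes glutathione synthesis, reductases, glutaredoxins and glutathione transferases, lay on both sides of the median gene. Against alpha cells 5 of 33 tested were higher in beta cells and 8 lower, against delta cells 5 and 9 of 34, and against PP cells 9 and 8 of 33. Over all genes tested the shares were 17.2% and 15.5%, 18% and 17%, and 15.9% and 14.5%. The balance against alpha cells turned with the scaling, to 6 higher and 5 lower with the total of all UMIs and 8 and 6 with the trimmed mean of M values. Against delta cells these gave 7 and 8, and 8 and 8, and against PP cells 7 and 6, and 10 and 7. Of the calls, 1 against alpha, 3 against delta and 4 against PP cells were of genes over the floor in 1 class only. The list's medians were -0.12, 0.01 and -0.10. The lowest was Srxn1, sulfiredoxin, which repairs overoxidised peroxiredoxins: it had 99.0 CPM in beta cells against 315 in alpha, 353 in delta and 339 in PP cells, or -2.03, -1.85 and -1.89 relative to the median gene. Me1, the cytosolic malic enzyme that makes NADPH, was at -1.22, -1.06 and -1.61, but with 15.8 CPM in beta cells it was over the floor only in the other class each time. Mgst3, a microsomal glutathione transferase, was at -1.11, -1.30 and -1.14. The highest were Gstm1, a cytosolic glutathione transferase, at 1.68 against alpha cells but 0.38 and 0.46 against delta and PP cells, Idh2, the mitochondrial NADPH-producing isocitrate dehydrogenase, at 1.17, 1.05 and 1.29, and Ftl1, the ferritin light chain, at 0.96, 1.03 and 0.61. Txnrd1, the reductase that recharges thioredoxin, was at -0.63, -0.73 and -0.78. Against alpha cells it came inside 1.5-fold with the total of all UMIs (-0.52) and with the trimmed mean of M values (-0.54), while it stayed lower against delta and PP cells under both.

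A list for selenoproteins and for inserting selenocysteine had 20 genes in the gene list. It included Selenbp1, a selenium-binding protein that is neither and that reached the floor in no contrast. Of the 20, 14 were tested against alpha cells and 15 against each of the others. Counts were 3 higher and 3 lower against alpha, 3 and 2 against delta, and 3 and 3 against PP cells, with medians of 0.34, 0.12 and -0.03 and the same shares over all genes as above. Against alpha cells both other scalings gave 5 higher and 1 lower. Against PP cells the total of all UMIs gave 2 and 1 and the trimmed mean of M values 3 and 1, and against delta cells they gave 2 and 2, and 3 and 2. Sephs2, which makes the selenium donor, had 81.7 CPM in beta and 28.2 in alpha cells (1.18 relative to the median gene), and Sepsecs, which forms selenocysteine on its transfer RNA, 41.4 and 17.8 (0.86). Dio1, the selenoprotein that activates thyroid hormone, was highest of the list at 2.48 against alpha cells (130 against 18.2 CPM), with 0.40 against delta and 0.85 against PP cells. Sepsecs and Dio1 were over the floor only in beta cells in the contrast with alpha cells. The lowest against alpha cells were Ept1 (-1.25), Txnrd1 (-0.63) and Sepn1 (-0.59). Sepn1 was over the floor only in alpha cells, and the interval of its plain level ratio, 0.689 to 1.06, held 1.

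Counted against the 9 intracellular members within the same cells, which needs no total, Gpx3 had 0.1102 UMIs for each UMI of the others together in beta cells (0.108 to 0.113). The ratio was 0.647 (0.612 to 0.684) in delta, 1.22 (1.16 to 1.28) in PP and 2.23 (2.18 to 2.29) in alpha cells. Gpx3 thus made up 9.92% of the members' UMIs in beta cells and 69.1% in alpha cells. The other 9 together differed far less between classes, with 1974 CPM in beta, 1814 in alpha, 1979 in PP and 2653 in delta cells. Cell by cell, Gpx3 had more UMIs than the other 9 together in 386 of 423 alpha cells (91.3%), 67 of 117 PP cells (57.3%), 30 of 137 delta cells (21.9%) and 15 of 3258 beta cells (0.460%).

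Per cell, the median Gpx3 level was 1.63 UMIs per 10000 non-hormone UMIs in beta, 13.6 in delta, 25.1 in PP and 38.3 in alpha cells. Beta and alpha cells hardly overlapped: 19 beta cells (0.583%) reached the 5th percentile of alpha cells, 16.6. Those 19 held 7.27% of all beta Gpx3 UMIs, and in 11 of them Gcg, Sst and Ppy together took at least 1% of UMIs, which only 88 beta cells (2.70%) did. Gpx3 was at 936 CPM in those 88 cells and at 190 in the other 3170. PP cells had the largest variance relative to counting alone among the endocrine classes, 10.4 times, a ratio that also grows with the mean count. Their 10th percentile was 1.69, at the level of a median beta cell. The 97 PP cells with under 5% insulin had 2783 CPM, the 12 with 5 to 15% had 740 and the 8 with 15 to 30% had 984. In alpha cells the level was 3410 CPM at 8 to 16% Gcg (92 cells), 4152 at 16 to 24% (178 cells) and 4419 at 24% and over (153 cells). No doublet caller was run, and what part barcodes with more than 1 cell have in these values was not tested.

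**Figure D3:**
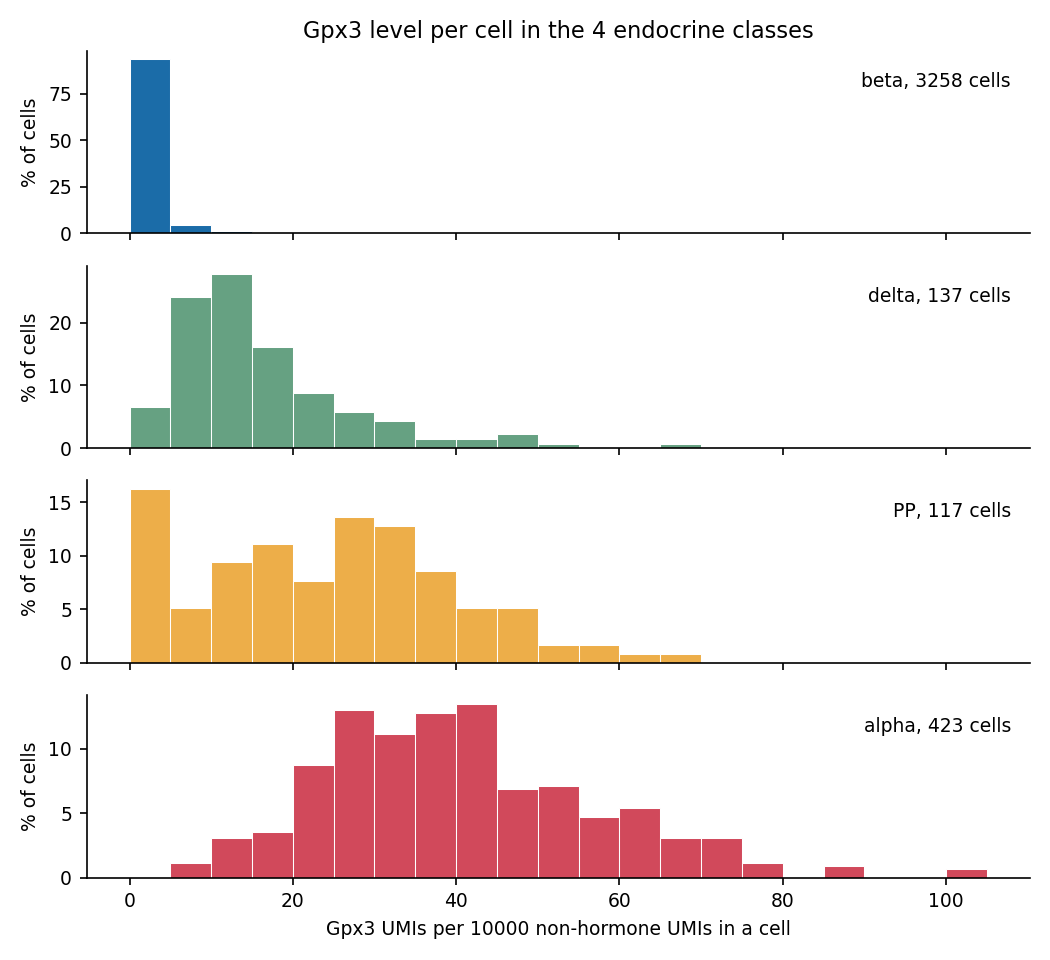
Share of cells (%) in each endocrine class by Gpx3 level, in UMIs per 10000 non-hormone UMIs of a cell, in bins of 5. In beta cells 93.4% lie in the lowest bin, alpha cells are centred on a median of 38.3, and 16.2% of PP cells lie in the lowest bin while the class median is 25.1.

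How much of the Gpx3 counted in beta cells was their own could not be settled from these counts. Barcodes with macrophage markers passed no hormone limit, and insulin took a median 2.61% of their UMIs. Whether some of them hold more than 1 cell was not tested. Their Gpx3 level was 195 CPM (168 to 226), and the interval of its ratio to that of beta cells held 1. A few of these barcodes held much of that sum, with a variance 6.79 times that of counting alone: per barcode the median was 0.931 UMIs per 10000 non-hormone UMIs and the 90th percentile 2.32, both below the 1.63 and 4.15 of beta cells. Barcodes with endothelial markers had 117 CPM (96.0 to 140), with a median of 0.787 and a 90th percentile of 2.67. Per barcode this was 2.41 Gpx3 UMIs in beta cells, 2.32 with macrophage markers and 0.974 with endothelial markers, against 47.2 in alpha cells. The median numbers of non-hormone UMIs were 10348.5, 10476, 7821 and 10536, in that order. For every 100 Gcg UMIs there were 4.46 Gpx3 UMIs in beta cells, 5.94 with macrophage markers and 4.14 with endothelial markers, while droplets of at most 200 UMIs had 2.10 and alpha cells 1.33. A limit was set by taking all Gcg in beta cells as free RNA with the makeup of those droplets. Free RNA would then be at most 9.65% of beta UMIs and up to 47.1% of beta Gpx3. The limit holds only for that makeup, and barcodes with either marker set had more Gpx3 per Gcg than the droplets. The same limit, taken from Ins2, was 1.55% of Gpx3 in alpha, 5.50% in delta and 5.08% in PP cells.

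Among the 4 endocrine classes the share of cells with a Gpx3 UMI was lowest in beta cells, as the level was. The share was lower in PP than in delta cells, though the level was higher in PP cells. Thinned to 3000 non-hormone UMIs a cell, which left out 47 beta cells and 1 PP cell, Gpx3 was seen in 42.6% of beta, 90.04% of PP, 96.7% of delta and 99.9% of alpha cells, and in 26.2% and 25.02% of barcodes with macrophage and endothelial markers. Unthinned the shares were 82.5%, 98.3%, 100%, 100%, 57.7% and 50.9%. Thinned Prdx4 was seen in 5.50% of beta cells and in 19.6% of alpha, 18.3% of delta and 19.7% of PP cells (unthinned 18.3%, 52.2%, 42.3% and 47.9%). Among the abundant members, Gpx4 was even from cell to cell, with a variance 1.18 to 1.26 times that of counting in the 4 classes, while Gpx1 reached 2.51 to 3.89 times.

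Within beta cells, the peroxiredoxins, Txn1 and Sod2 were higher where the insulin share was higher, while the top and bottom bands of insulin share differed 1.03-fold (0.969 to 1.09) in Gpx1 and 1.12-fold (1.06 to 1.19) in Gpx4. Across insulin shares of 30 to 40%, 40 to 50%, 50 to 60% and 60% or more (471, 1057, 1339 and 391 cells), Prdx1 had 209, 246, 300 and 390 CPM. Prdx2 had 126, 161, 194 and 266, and Txn1 had 78.9, 99.0, 126 and 160. Prdx4 stood at 13.6, 15.3, 22.3 and 34.4, and Sod2 at 132, 154, 167 and 200. Each of these 5 members was highest in the top band. Between the top and bottom bands the ratio was 2.53 for Prdx4 (1.92 to 3.37), 2.11 for Prdx2 (1.93 to 2.32), 2.03 for Txn1 (1.80 to 2.29), 1.87 for Prdx1 (1.73 to 2.01) and 1.51 for Sod2 (1.37 to 1.67). In the bottom and top bands Gpx1 had 456 and 468, Gpx4 441 and 496, and Sod1 247 and 295. Gpx3 had 263, 199, 204 and 252 CPM across the bands, lower in the middle bands than at either end. Relative to the median gene 5 of 9 members were over 1.5-fold higher in the top band and 0 lower, beside 15.1% of 6813 genes higher and 7.9% lower.

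Depth moved with insulin share, with median UMIs of 21530 in the bottom and 34322 in the top band. Among beta cells of 20000 to 26000 UMIs, a range chosen after the data were seen, the same ratios over 49 and 195 cells were 2.34 for Prdx4 (1.15 to 4.48), 1.54 for Sod2 (1.17 to 2.01), 1.47 for Prdx1 (1.19 to 1.80), 1.42 for Txn1 (0.974 to 2.02) and 1.21 for Prdx2 (0.889 to 1.61). The intervals of Txn1 and Prdx2 then held 1, as did those of Gpx1, Gpx4 and Sod1, while Gpx3 was at 1.26 (1.02 to 1.54). Relative to the median gene 2 of 9 members (Sod2 and Prdx4) were over 1.5-fold higher and 0 lower. Prdx4 again reached the floor only in the top band, with 13 UMIs in its 49 cells, so its call is a description. Over all 7042 genes tested 10.7% were higher and 12.4% lower. In 4 near-equal groups of beta cells by total UMIs Prdx2 had 138, 139, 153 and 248 CPM, from the shallowest to the deepest. The part of depth in the other values was not tested further. In alpha cells Prdx4 stood at 48.5, 67.4 and 95.3 CPM over the 3 bands of Gcg share, and Prdx2 at 145, 186 and 212. Prdx1 had 211, 250 and 293 and Sod2 115, 128 and 132. Txn1 did not rise there, with 158, 157 and 147, and Gpx1 had 421, 419 and 360.

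**Figure D4:**
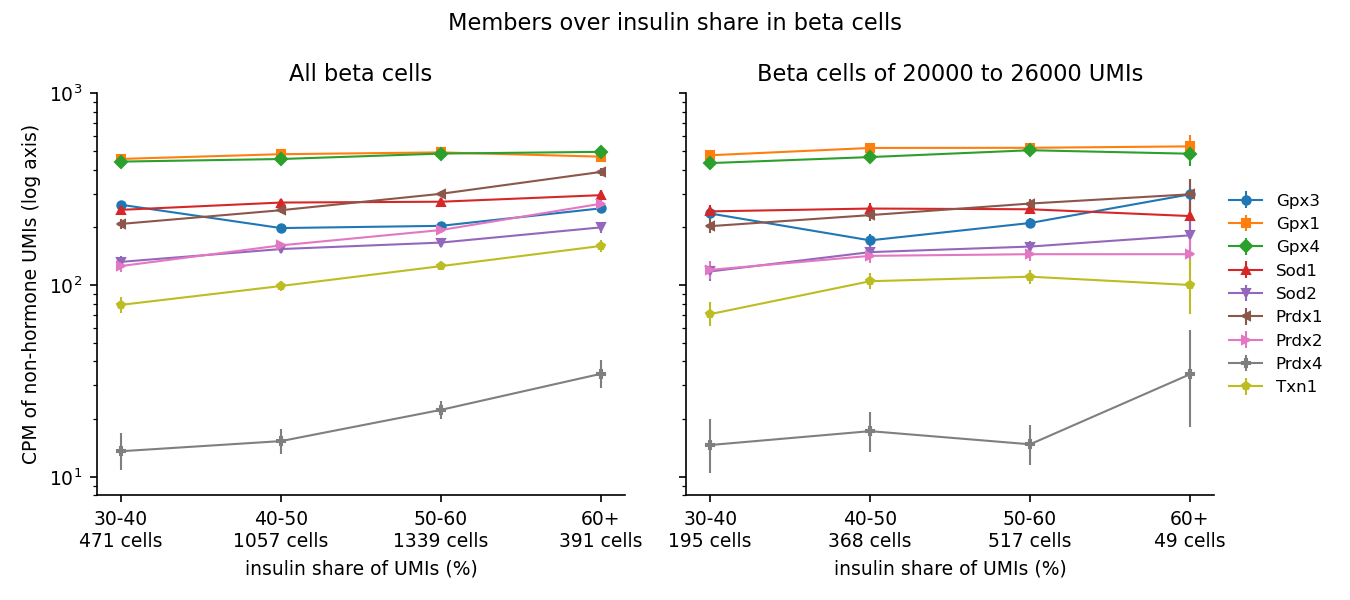
Levels of 9 members (CPM of non-hormone UMIs, log axis) in beta cells by insulin share of UMIs, for all beta cells and for those of 20000 to 26000 UMIs. Bars are exact 95% Poisson intervals. Over all beta cells Prdx2 goes from 126 to 266 CPM, and at matched depth from 120 to 145.

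Values were also taken on either side of the class limits. Gpx3 had 426 CPM just outside the insulin limit (25 to 30% insulin) and 270 just inside it (30 to 35%), and 2822 and 2782 on the outer and inner side of the Gcg limit. At the Sst limit it had 1232 outside and 1830 inside, and at the Ppy limit 871 and 1437. Barcodes outside and inside numbered 109 and 191 at the insulin limit and 28 and 13 at the Gcg limit. At the Sst limit they numbered 22 and 9 and at the Ppy limit 15 and 9, so a few barcodes can move these sums.

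The genes whose pattern over beta, alpha, delta and PP cells and cell-free droplets was nearest to that of Gpx3 were Eef1a2, Cit, Etv1, Sfrp5 and Gria2, at distances of 0.69, 0.85, 0.85, 0.90 and 0.90 between centred log2 levels among 4039 genes. Eef1a2 had 1.83 CPM in beta and 71.5 in alpha cells. Nearest to Prdx4 were Rnd3 (0.25), Srxn1 (0.28), Cst3 (0.30), 1700086L19Rik (0.30) and Camk2d (0.40). These distances describe 5 points from 1 library that share the same free RNA.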

How the data were processed

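Single-cell 3′ libraries of islets from WT and miR-203 TG mice were measured, 1 per group. Values were deposited as whole UMI counts per gene and droplet barcode, unfiltered and without normalisation, per the file headers. Per the submitters' processing notes, FastQC, Trimmomatic and the build mm10 were used; which aligner, counter or annotation was used is not given in the sources used here. Of TG, the copy held 782 UMIs, of which 1 (Prdx1) was a member's, against 1.31 expected at the share in WT droplets, so no comparison between the groups was made.

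Barcodes were grouped by hormone share, counts were summed per class and divided by non-hormone UMIs, and intervals are exact (Poisson for levels, conditional binomial for ratios, Clopper-Pearson for shares). Cells of 1 library are not replicates, so no p-value is given. The calculation of the contrasts was run on simulated counts with counting error only. Those counts held no spread between cells, no free RNA and no mixed barcodes, so they cannot show how these affect the contrasts. The members and lists were chosen with earlier results of these data known. Named genes are all members, the 3 highest and 3 lowest of each list against alpha cells, and the 5 nearest to Gpx3 and Prdx4; Txnrd1 is in both lists. Coordinates come from GENCODE M21 (GRCm38, the assembly of mm10). Python 3.11.15, numpy 2.4.6, scipy 1.17.1, pandas 2.3.3, matplotlib 3.10.9 and, for an alternative scaling only, edgeR 4.0.16 in R 4.3.3 were used. Alternatives covered the total, scaling, class limits, depth, mitochondrial share, weighting of cells, free RNA, the floor and the fold.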

Additional observations from a re-analysis of the deposited data

How the results depend on the processing

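Gpx3 was lower in beta cells under each of 10 alternatives per contrast, and the other members called lower kept their direction, though not always their call. Of 300 member ratios 10 changed sign, all of them among 6 ratios of Gpx1, Sod1 and Sod2 whose values stayed within 0.28 of the median gene. The causes of the moves were not tested. Against alpha cells the log2 ratio of Gpx3 was -4.467 with the total of all UMIs, -4.487 with the trimmed mean of M values, -4.742 with stricter hormone limits, -5.432 with free RNA taken off and -4.807 without barcodes holding other hormones, the last chosen after the data were seen. In the same order it was -2.918, -2.903, -3.104, -3.822 and -3.274 against delta cells, with -3.161 at 10000 UMIs and more, and -3.508, -3.497, -3.967, -4.481 and -3.983 against PP cells. With no floor, Cat made 1 member higher in beta cells against alpha and 1 against PP cells. Members lower against delta cells numbered 3 at 10000 UMIs and more and 2 at 2-fold. Txn1 passed 1.5-fold in 7 of 10 alternatives against PP and 8 of 10 against delta cells, and Prdx1 in 9 of 10 against delta cells. Against PP cells Prdx1, inside 1.5-fold in the main values, passed it as lower in 4 of 10 alternatives, reaching -0.80. Counts of the 2 wider lists moved by over 1.5 times in 32 of 156 cases, and thinning moved 73 of 80 cell shares. Depth limits Cat, whose counts leave intervals over 10-fold wide in alpha and PP cells. No paired analysis was possible because each group has 1 library.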
